A study of Homo sapiens with 3 samples.

Results

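YAP1 and WWTR1, the gene of TAZ, encode coactivators that enter the nucleus when the kinases of the Hippo pathway are inactive and bind DNA through the TEAD transcription factors. Cell stretch, a stiff substrate and low cell density are known to favour their nuclear form, and in fibroblasts they are known for driving matrix and contractile genes. The control acts largely on the proteins, through phosphorylation and place in the cell, which an RNA measurement does not see. The 10 genes described here are the 6 factors YAP1, WWTR1 and TEAD1 to TEAD4 and the 4 widely used target genes ANKRD1, CCN1, CCN2 and AMOTL2. They were chosen by name, as every probe set whose single gene symbol is one of the 10, which gave 21 of 54613 probe sets and 10 of 19775 named genes.

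All cells were IMR-90 ER:Ras, human lung fibroblasts that carry an inducible Ras protein, a fusion with an estrogen receptor domain that 4-hydroxytamoxifen (4-OHT) switches on. The first condition, oncogene-induced senescence (OIS), followed treatment with 4-OHT at 100 nM over 6 days. Replicative senescence (RS), the second, was reached by 10 weeks of repeated passage, and growing cells with no treatment were the third. Each condition had 1 Affymetrix array from 1 culture, made from 250 ng of total RNA. Cells without the fusion given 4-OHT were not analysed here, so Ras and 4-OHT itself cannot be told apart in OIS.

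With 1 array per condition no test between conditions was possible, and every difference below is a description of 3 arrays whose number limits its precision. The values are MAS5 signals, a background-subtracted intensity per probe set on a linear scale, and a floor of 45.5 signal units, the pooled median, marks the level below which no difference was read. The arrays were alike in scale, with 49.8% to 50.3% of probe sets above the floor. All 10 fibroblast markers, among them COL1A1, PDGFRA and VIM, were above the floor on every array. The 10 cell division genes were all lower in both senescent states, with median log2 ratios of -2.51 for OIS over growing cells and -2.20 for RS over growing cells. The checkpoint kinase BUB1B was lowest in both, at -3.64 and -3.28, followed by TOP2A at -3.08 and -2.67. The replication clamp PCNA was nearest to growing cells, at -0.92 and -1.26, followed by RRM2 at -2.35 in OIS and MCM5 at -1.64 in RS. Where a gene has several probe sets, they repeat its measurement on the same RNA. Over 5573 genes whose best pair of probe sets was above the floor on every array, the SD of the difference between the pair's log2 ratios was 0.43 in OIS over growing cells, 0.41 in RS over growing cells and 0.44 in OIS over RS. This spread between probe sets reflects the probes and says nothing of how cultures vary.

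ANKRD1, far higher in RS, had the largest differences of the 10 genes, and with their brightest probe sets each of the others stayed within 2-fold between any pair of arrays. None of the factors was at or past 2-fold in OIS over growing cells, in RS over growing cells or in OIS over RS, against 11.6%, 9.3% and 10.7% of 13466 measured genes in those comparisons, so that a count of 0 among 6 is near the background. ANKRD1 was the 1 target past 2-fold, higher in RS. All 4 targets were lower in OIS than in RS, with log2 ratios from -0.52 to -4.58, where 48.1% of measured genes were lower by any amount. All 10 genes were above the floor on every array with their brightest probe set, which represents the gene below unless another is named. In bulk RNA, fewer cells of a type and less RNA per cell cannot be told apart.

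**Figure D1:**
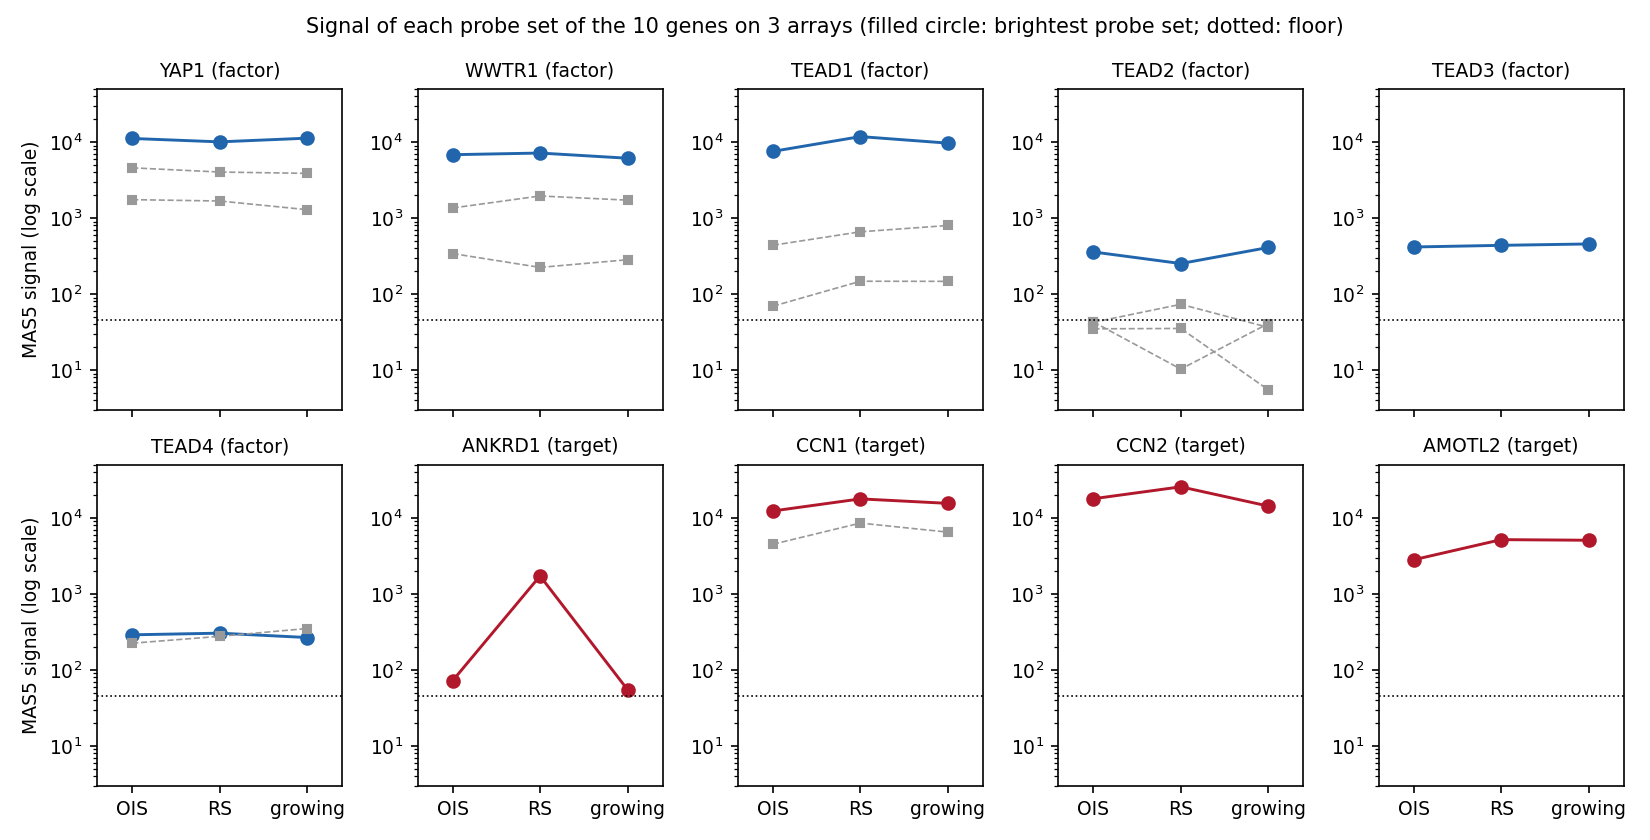
MAS5 signal, on a log axis, of every probe set of the 10 genes on the OIS, RS and growing arrays; coloured circles are the brightest probe set (blue for factors, red for targets), grey squares the other probe sets and the dotted line the floor of 45.5. YAP1 stays between 10075 and 11270 with its brightest probe set, whereas ANKRD1 is at 72.0 in OIS, 1726 in RS and 55.1 in growing cells.

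YAP1, the main coactivator of the pathway, had signals of 11168 in OIS, 10075 in RS and 11270 in growing cells. The 3 arrays lay within a log2 range smaller than the spread between probe sets, at -0.01 for OIS over growing cells and -0.16 for RS over growing cells. A second probe set read 4588 in OIS, 4038 in RS and 3878 in growing cells, and the third read 1749 in OIS, 1679 in RS and 1291 in growing cells. These probe sets gave log2 ratios of 0.24 and 0.44 for OIS over growing cells and of 0.06 and 0.38 for RS over growing cells, so the highest array was not the same for each.

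WWTR1 encodes TAZ, the paralog of YAP1. Its signal was 6829 in OIS, 7181 in RS and 6138 in growing cells, with log2 ratios of 0.15 for OIS and 0.23 for RS over growing cells. The other probe sets disagreed in sign. One gave -0.34 for OIS and 0.18 for RS over growing cells, and the other gave 0.27 for OIS and -0.33 for RS. No direction can be read for WWTR1 from these values.

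TEAD1, a DNA-binding partner of both coactivators, was the factor whose probe sets agreed best on a difference, with OIS the lowest array. Its brightest probe set read 7555 in OIS, 11819 in RS and 9698 in growing cells. The second read 439.5 in OIS, 660.3 in RS and 799.7 in growing cells, and the third read 69.3 in OIS, 148 in RS and 147 in growing cells. OIS was the lowest array in all 3 probe sets, and RS and growing cells changed places. The log2 ratios of OIS over growing cells were -0.36, -0.86 and -1.09, and those of OIS over RS were -0.65, -0.59 and -1.09. For RS over growing cells they were 0.29, -0.28 and 0.00. The brightest probe set lay within the spread between probe sets for OIS over growing cells and beyond it for OIS over RS. The third probe set has the ending of those that can hybridize to several transcripts, and its OIS signal is near the floor. With the median of all its probe sets in place of the brightest, TEAD1 was at -0.86 for OIS over growing cells.

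TEAD2, TEAD3 and TEAD4 are the other members of the family. TEAD2 had 359 in OIS, 252 in RS and 411 in growing cells, lowest in RS, with a log2 ratio of -0.70 for RS and -0.20 for OIS over growing cells. Its value in RS over growing cells lay beyond the 0.41 SD between probe sets and was 1.63-fold, but of its other 3 probe sets 2 were below the floor on every array and the last was above it only in RS, at 73.4. That probe set ran the other way. TEAD3, with a single probe set, was level at 417 in OIS, 438 in RS and 457 in growing cells. For TEAD4 the brightest probe set gave 289.9 in OIS, 305 in RS and 267 in growing cells, and its other probe set gave 225 in OIS, 277 in RS and 351 in growing cells. The TEAD4 probe sets thus put growing cells at opposite ends, with log2 ratios of 0.12 and -0.64 for OIS over growing cells.

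ANKRD1 encodes a muscle ankyrin repeat protein that binds titin in the sarcomere and also occurs in the nucleus, and it is among the genes most used to read out YAP and TAZ. Its signal was 72.0 in OIS, 1726 in RS and 55.1 in growing cells. RS stood alone, while OIS and growing cells were both just above the floor and differed by a log2 ratio of 0.39, within the spread between probe sets. The RS signal was 31.3-fold that of growing cells, a log2 ratio of 4.97, and the OIS signal was 24.0-fold lower than that of RS. In RS over growing cells 3.72% of 13466 measured genes passed 2-fold on the higher side, and ANKRD1 had the 2nd highest ratio of all of them. It was also the 5th lowest in OIS over RS. With the floor at the 60th percentile, 88.8 signal units, both dim arrays were at the floor and the log2 ratio of RS over growing cells was at least 4.28. ANKRD1 has a single probe set here, so no second reading of it exists.

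Since ANKRD1 is a gene of heart and skeletal muscle, markers of those tissues were read beside it. Of 11 markers on the array under a single name, 2 were above the floor in OIS, 1 in RS and 3 in growing cells, with summed signals of 318 in OIS, 275 in RS and 246 in growing cells. TTN, which encodes titin, was above the floor on every array, with 70.0 in OIS, 85.3 in RS and 64.3 in growing cells. MYH7 was above it only in OIS, at 48.7, and NPPA and DES only in growing cells, at 56.3 and 51.1. MYH6, MYL2, MYL7, TNNI3, MYOD1, MYOG and CKM were below the floor on every array. The related genes ANKRD2 and ANKRD23, of the same muscle ankyrin repeat family, were below it too. ACTC1, cardiac alpha actin, did share the direction, with 60.4 in OIS, 640.5 in RS and 64.1 in growing cells. Of 8 epithelial markers 4 were above the floor in OIS, 4 in RS and 5 in growing cells, with summed signals of 3282 in OIS, 6539 in RS and 3443 in growing cells. KRT18, with 2963 in OIS, 6010 in RS and 2987 in growing cells, made up most of each sum. It was 2.01-fold and KRT8 2.20-fold higher in RS than in growing cells. EPCAM had 49.1 in OIS, 194 in RS and 157 in growing cells, and SFTPC had 68.7 in OIS, 47.4 in RS and 80.7 in growing cells. KRT19 was above the floor only in growing cells, and CDH1, KRT5 and SCGB1A1 were below it on every array. The part of other cell types in the RS values was not tested.

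Some endothelial markers were higher in OIS. Of 8 such markers 4 were above the floor on every array. Of these, 3 were at least 2-fold higher in OIS than in growing cells, beside 4.92% of all measured genes. The median log2 ratio of the 4 was 1.30. ROBO4 had 576 in OIS, 58.5 in RS and 105 in growing cells. PECAM1 had 135 in OIS, 52.7 in RS and 49.0 in growing cells, and VWF had 131 in OIS, 80.9 in RS and 59.7 in growing cells. TEK, with 1275 in OIS, 2033 in RS and 1251 in growing cells, was level in OIS and highest in RS. CDH5, KDR, TIE1 and CLDN5 were below the floor on every array. The summed signal was 2162 in OIS, 2258 in RS and 1499.6 in growing cells, most of it from TEK. Of 6 blood cell markers on the array under a single name none was past 2-fold, with summed signals of 447 in OIS, 375 in RS and 369 in growing cells. The part of these in the OIS values of the gene groups was not tested.

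CCN2, also known as CTGF, encodes a secreted matricellular protein of fibrosis and wound repair and is a target of TGF-beta as well as of YAP. Its signal was 17914 in OIS, 25695 in RS and 14339 in growing cells. RS was highest and growing cells lowest, with log2 ratios of 0.84 in RS over growing cells, 0.32 in OIS over growing cells and -0.52 in OIS over RS. The first is a 1.79-fold difference, and 12.8% of measured genes lay as far from 0 in that comparison. OIS and growing cells differed by less than the SD between probe sets. The RS signal is not far below 36667, the highest of any probe set on the arrays, and whether the brightest spots were compressed was not tested. CCN2 has 1 probe set.

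CCN1, also known as CYR61, encodes a related secreted protein that signals through integrins. The brighter probe set read 12367 in OIS, 17833 in RS and 15567 in growing cells, and the other read 4509 in OIS, 8563 in RS and 6509 in growing cells. Both put OIS lowest and RS highest. Their log2 ratios were -0.33 and -0.53 for OIS over growing cells, 0.20 and 0.40 for RS over growing cells. For OIS over RS they were -0.53 and -0.93. Only the values of OIS over RS, and 1 probe set of OIS over growing cells, were beyond the spread between probe sets.

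AMOTL2, an angiomotin family protein that binds and restrains YAP and is itself a YAP target, was lower in OIS. Its signal was 2819 in OIS, 5187 in RS and 5091 in growing cells, from its single probe set. OIS stood alone below the other arrays, which were 0.03 apart on the log2 scale. The OIS signal was 1.81-fold lower than that of growing cells and 1.84-fold lower than that of RS, with log2 ratios of -0.85 and -0.88. In OIS over growing cells 15.1% of measured genes were as far from 0.

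The medians bring out factors against targets. For OIS over growing cells the median log2 ratio was -0.01 for the targets, from -0.85 to 0.39, and -0.07 for the factors, from -0.36 to 0.15. For RS over growing cells it was 0.52 for the targets, from 0.03 to 4.97, and 0.06 for the factors, from -0.70 to 0.29. For OIS over RS it was -0.70 for the targets and -0.07 for the factors. Over all measured genes each of these medians was 0.00. Without ANKRD1, an alternative added after the values were seen, the target medians were -0.33, 0.20 and -0.53, so the target median stood 0.13 above that of the factors in RS, in place of 0.45. The first pair of comparisons shares the growing array. At 1.5-fold in place of 2-fold, AMOTL2 passed in OIS over growing cells, where 26.5% of measured genes did. In RS over growing cells ANKRD1, CCN2 and TEAD2 passed, beside 23.7% of measured genes, and in OIS over RS ANKRD1, AMOTL2 and TEAD1 did, beside 25.4%.

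**Figure D2:**
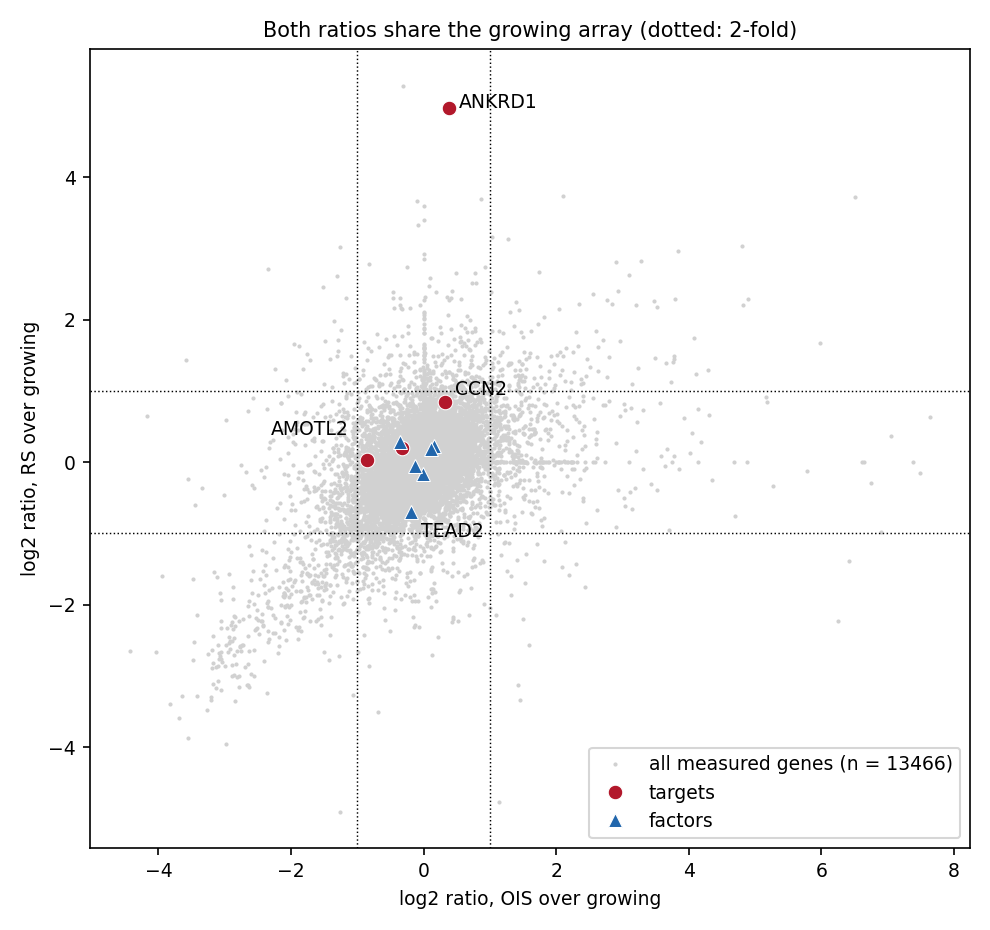
Log2 ratio of RS over growing cells against that of OIS over growing cells, for 13466 measured genes (grey), the 4 targets (red circles) and the 6 factors (blue triangles); both axes share the growing array and dotted lines mark 2-fold. ANKRD1 stands at 4.97 on the RS axis and 0.39 on the OIS axis, while the factors lie within the 2-fold box.

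The genes with the pattern most like each member were sought by distance in the plane of those 2 log2 ratios, over 3 arrays and 11295 genes above the floor on each. ANKRD1 had no close neighbour. The nearest were CCND2, which encodes cyclin D2, and the teneurin TENM1, 1.36 and 1.39 log2 units away. For CCN2 the nearest were MAPK8IP3, 0.0234 away, and COL13A1, a transmembrane collagen, 0.0238 away. For AMOTL2 they were the kinase PRKD1, 0.0125 away, and PDLIM7, an actin-associated adaptor, 0.0169 away. B4GALT4 and RIOK1 were nearest to CCN1, PEF1 and LINC02838 to TEAD1, and IFT74 and ARID1B to TEAD2. The remaining factors sat in the dense centre, next to LLGL1 and TMEM198 for YAP1, MRPL55 and CACNA1I for WWTR1, DEDD and OSBPL11 for TEAD3, and PHLDA3 and CINP for TEAD4. Such short distances are common with this many genes.

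The promoters are shown because TEAD proteins bind a short motif, GGAATG on either strand, and the target with the largest difference can be set beside those with small ones. RefSeq's table for GRCh38.p14 matched YAP1, WWTR1, TEAD2, TEAD3, ANKRD1, CCN2 and AMOTL2, 7 of the 10 genes, in 10 entries. The 250 bases before each annotated start were searched on both strands for GGAATG, for the AP-1 pattern TGANTCA and for the CArG box of SRF. N stands for any base, which makes the AP-1 search a loose one. The lines below give the strand of transcription, here minus for all 3 genes, from 5′ to 3′ and up to the base before the start, and the capitals mark GGAATG or its reverse complement CATTCC.
ANKRD1, chr10:90921088-90921337: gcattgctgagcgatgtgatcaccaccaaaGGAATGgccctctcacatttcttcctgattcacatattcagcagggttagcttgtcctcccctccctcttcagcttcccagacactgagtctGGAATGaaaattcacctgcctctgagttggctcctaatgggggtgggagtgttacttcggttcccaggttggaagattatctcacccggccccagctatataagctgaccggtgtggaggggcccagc
CCN2, chr6:131951373-131951622: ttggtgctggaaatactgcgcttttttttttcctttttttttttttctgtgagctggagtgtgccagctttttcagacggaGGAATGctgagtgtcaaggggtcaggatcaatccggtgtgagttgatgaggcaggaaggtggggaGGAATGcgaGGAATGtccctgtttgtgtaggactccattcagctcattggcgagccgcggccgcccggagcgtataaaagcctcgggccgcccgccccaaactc
AMOTL2, chr3:134374448-134374697: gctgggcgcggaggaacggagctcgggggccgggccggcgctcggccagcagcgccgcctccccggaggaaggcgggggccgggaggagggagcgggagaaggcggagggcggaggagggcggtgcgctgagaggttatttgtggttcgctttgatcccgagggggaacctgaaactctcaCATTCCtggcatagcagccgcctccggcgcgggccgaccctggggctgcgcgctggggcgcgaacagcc

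CCN2 held 3 matches to the TEAD motif, which begin 169, 104 and 95 bases before the start. ANKRD1 held 2, which begin 220 and 128 bases before it. AMOTL2 held 1 at 69 bases in the entry printed and none in its other annotated start, and YAP1 held 1 at 162 bases. WWTR1, TEAD2 and TEAD3 had none of these letters in the window. Of 35116 promoters of this length 11.9% held at least 1 match, 0.94% at least 2 and 0.0826% at least 3. ANKRD1 also held 1 match to the loose pattern TGANTCA, which reads TGATTCA, where 6.57% of promoters held at least 1. It begins 195 bases before the start and does not overlap the TEAD matches. None of the 7 genes searched held a CArG box, which 1.16% of promoters did. CCN2, with 3 matches, was 1.79-fold higher in RS than in growing cells, and ANKRD1, with 2, was 31.3-fold higher. AMOTL2, with 1 in the entry printed, had a log2 ratio of 0.03 in that comparison, and YAP1, with 1, had -0.16. Whether the number of matches goes with the size of the differences was not tested. A match is a description of the sequence and not evidence of binding in these cells.

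**Figure D3:**
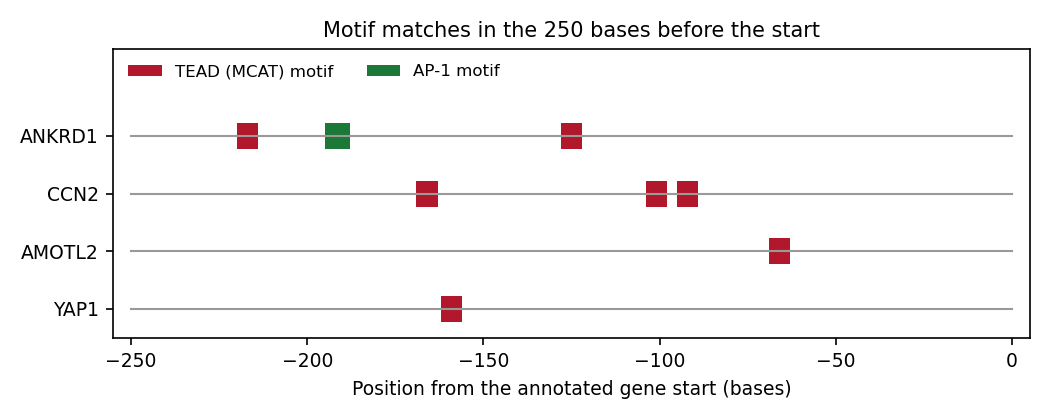
Positions of motif matches, in bases from the annotated gene start, in the 250 bases before ANKRD1, CCN2, AMOTL2 and YAP1; red blocks are the TEAD motif on either strand and the green block the AP-1 motif. CCN2 carries 3 TEAD matches, ANKRD1 2 and the others 1 each.

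A list of 18 further genes reported as YAP and TAZ targets was set beside the 4 core ones, 17 of them measured. Most were lower in OIS than in RS. In OIS over RS 14 of 17 were lower and 3 higher, with a median log2 ratio of -0.75. Past 2-fold were 4 on the lower side and 1 on the higher side. Over all measured genes 48.1% were lower by any amount, 5.27% were past 2-fold on the lower side and 5.48% on the higher, and the median was 0.00. When probe sets open to cross-hybridization were left out, the median was -0.43, over 14 genes, and 2 passed 2-fold on the lower side. CCDC80, a secreted matrix protein, had 1106 in OIS, 4220 in RS and 4756 in growing cells, 3.82-fold lower in OIS than in RS. IGFBP3, which binds insulin-like growth factors, had 10075 in OIS, 22950 in RS and 9989.8 in growing cells, so here RS stood out. The membrane repair protein MYOF, at 6577 in OIS, 14493 in RS and 12590 in growing cells, was 2.20-fold lower in OIS than in RS. FJX1, the homolog of a Golgi kinase that acts in the Hippo pathway of flies, went the other way, with 4871 in OIS, 2130 in RS and 1542 in growing cells.

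**Figure D4:**
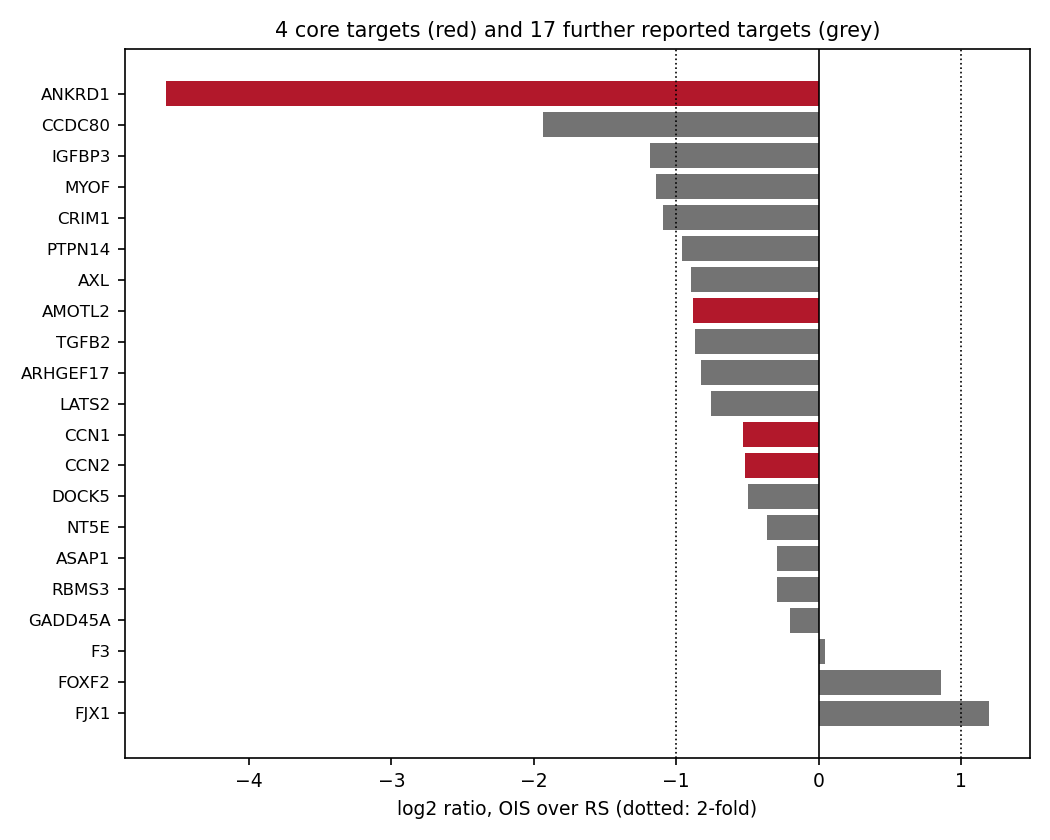
Log2 ratio of OIS over RS for the 4 core targets (red) and 17 measured further reported targets (grey), sorted, with dotted lines at 2-fold. The bars of all 4 core targets and of 14 further ones point to lower signal in OIS.

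Against growing cells the further targets split. In OIS, past 2-fold, 1 of 17 was higher and 2 were lower, with a median of -0.17, beside 4.92% higher and 6.63% lower over all measured genes. The higher one was FJX1, 3.16-fold, and the lower ones were CCDC80, 4.30-fold, and the receptor tyrosine kinase AXL, 2.39-fold. In RS the median was 0.23 and 2 passed 2-fold, both on the higher side, beside 3.72% and 5.58% of all genes. The higher ones were TGFB2, a TGF-beta ligand, at 3.30-fold, and IGFBP3 at 2.30-fold. The lowest in RS were FOXF2, a lung fibroblast transcription factor, at -0.93 and RBMS3 at -0.66 on the log2 scale.

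The Hippo kinase cascade and its adaptors had members on both sides of growing cells and few past 2-fold. Of 17 measured genes 1 passed 2-fold upward in OIS over growing cells, beside 4.92% of all measured genes, and 1 in RS, beside 3.72%, which is near the background. None passed downward, beside 6.63% and 5.58%. The medians were both 0.02, over ranges of -0.55 to 1.15 in OIS and -0.81 to 1.01 in RS. In OIS it was STK38L, a kinase related to LATS, with 1568 in OIS, 1137 in RS and 705 in growing cells. In RS it was TAOK2, a kinase upstream of the cascade, with 248 in OIS, 325 in RS and 161 in growing cells. STK4 and STK3, the paired core kinases also called MST1 and MST2, had log2 ratios of 0.75 and -0.55 for OIS over growing cells, opposite in sign. LATS1 and LATS2, which phosphorylate YAP and TAZ, were opposite in RS over growing cells at -0.58 and 0.46, and LATS2 is also a reported target. SAV1, the scaffold of the core kinases, had the lowest RS ratio at -0.81, and NF2, the upstream regulator merlin, was at -0.32 in OIS and 0.51 in RS over growing cells.

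Among 15 measured binding partners and inhibitors of YAP and TAZ, 2 were at least 2-fold lower in OIS over growing cells, beside 6.63% of all measured genes, and none passed 2-fold in RS, beside 9.3% in either direction. The medians were -0.09 and 0.17. LIMD1, a LIM protein that binds LATS kinases, had 1219 in OIS, 1851 in RS and 3071 in growing cells. VGLL3, a TEAD cofactor of the vestigial-like family, had 2638 in OIS, 6376 in RS and 5588 in growing cells, low in OIS alone. In OIS over RS 13 of the 15 were lower and 1 higher, with a median of -0.26, where 48.1% of all measured genes were lower. Several of these lay within the spread between probe sets, such as CSNK1E at -0.01 and BTRC at -0.02. The lowest were VGLL3 at -1.27 and PTPN14 at -0.96, and PTPN14 is also in the list of further targets. CSNK1E, a casein kinase, was highest in both, at 0.97 for OIS and 0.98 for RS over growing cells, followed by the coactivator-binding WBP2 at 0.51 in OIS and by VGLL4, a TEAD corepressor, at 0.61 in RS. The angiomotin genes AMOT and AMOTL1 differed in level of detection, with AMOT below the floor on every array and AMOTL1 at -0.70 in OIS and -0.61 in RS over growing cells.

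Actin and muscle genes that answer to SRF and its MRTF coactivators, and that overlap with YAP targets in stretched cells, were lower in OIS than in RS. In OIS over RS 15 of 17 measured genes were lower, 5 of them at least 2-fold, with a median of -0.62, where 48.1% of all measured genes were lower and 5.27% at least 2-fold. When probe sets open to cross-hybridization were left out, the median was -1.03, over 11 genes, and 4 of them in place of 2 passed 2-fold upward in RS over growing cells. Against growing cells the medians were -0.29 in OIS, with none at least 2-fold higher and 2 lower, and 0.46 in RS, with 2 higher and 1 lower. All measured genes gave 4.92% higher and 6.63% lower in OIS, and 3.72% higher and 5.58% lower in RS. CNN1, the smooth muscle calponin, had 1084 in OIS, 5749.6 in RS and 2442 in growing cells, so the 3 arrays were all apart. TAGLN, an actin-binding protein of smooth muscle, had 6804 in OIS, 22029 in RS and 14190.0 in growing cells. ACTC1 was 9.99-fold higher in RS than in growing cells. ACTA2, smooth muscle alpha actin, was 1.05-fold higher in OIS and 1.81-fold in RS. SRF itself was 0.35 and 0.46 above growing cells on the log2 scale in OIS and RS, MRTFA was level at 0.02 and 0.00, and MRTFB was 1.82-fold and 2.05-fold lower.

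TGF-beta signalling, which also drives CCN2, gave no common direction. Of 12 measured genes 1 was at least 2-fold higher and 1 lower in OIS over growing cells, and 3 were higher and 1 lower in RS over growing cells, with medians of 0.35 and 0.03. Over all measured genes 4.92% were higher and 6.63% lower in OIS, near the count of 1 each, and 3.72% and 5.58% in RS. SMAD7, the feedback inhibitor, had 915 in OIS, 1662 in RS and 348 in growing cells. TGFB2 was 1.81-fold higher in OIS and 3.30-fold in RS. Whether it has a part in the CCN2 values was not tested. SKIL, a corepressor and feedback gene, had 4975 in OIS, 5099.9 in RS and 2488 in growing cells, just under the 2-fold line in OIS and just over it in RS. The coreceptor TGFBR3 was 2.68-fold lower in OIS and 2.01-fold in RS, and SMAD3, which carries the signal, was 1.61-fold and 1.60-fold lower.

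AP-1 factors bind enhancers together with TEADs. Of 9 measured, 4 were at least 2-fold higher and 1 lower in OIS over growing cells, with a median of 0.54, beside 4.92% and 6.63% of all measured genes. None of the 9 passed 2-fold in RS over growing cells, beside 9.3% of all measured genes in either direction, so that 0 is near the background. The median was 0.03. FOSB alone passed when the floor was the 25th percentile or was replaced by a pseudocount. ATF3, a stress-induced factor, had 2482 in OIS, 666 in RS and 566 in growing cells. FOS was above the floor only in OIS, at 215, at least 4.72-fold higher than in growing cells, and FOSB was at least 2.33-fold higher. JUNB was 2.37-fold higher in OIS and 1.87-fold in RS. FOSL1, the Fos-related factor often paired with TEADs, was the lower one, with 312 in OIS, 695 in RS and 680.3 in growing cells. FOSL2 was 1.68-fold lower in OIS, and in RS the lowest were BATF3 at -0.81 and JUND at -0.37.

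The relatives of CCN1 and CCN2 did not share one pattern. CCN4, also known as WISP1, had 4429 in OIS, 1117 in RS and 1344 in growing cells, 3.29-fold higher in OIS than in growing cells and level in RS at a log2 ratio of -0.27. CCN3 had 692 in OIS, 433 in RS and 772 in growing cells. CCN6 was above the floor only in RS, at 56.4, and CCN5 was below it on every array. Of the 4 detected members besides CCN6, CCN2 and CCN1 were thus highest in RS, CCN4 in OIS and CCN3 in growing cells. For CCN1 the log2 ratio of RS over growing cells, 0.20, was within the spread between probe sets. The same held for CCN3 in OIS over growing cells, at -0.16.

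**Figure D5:**
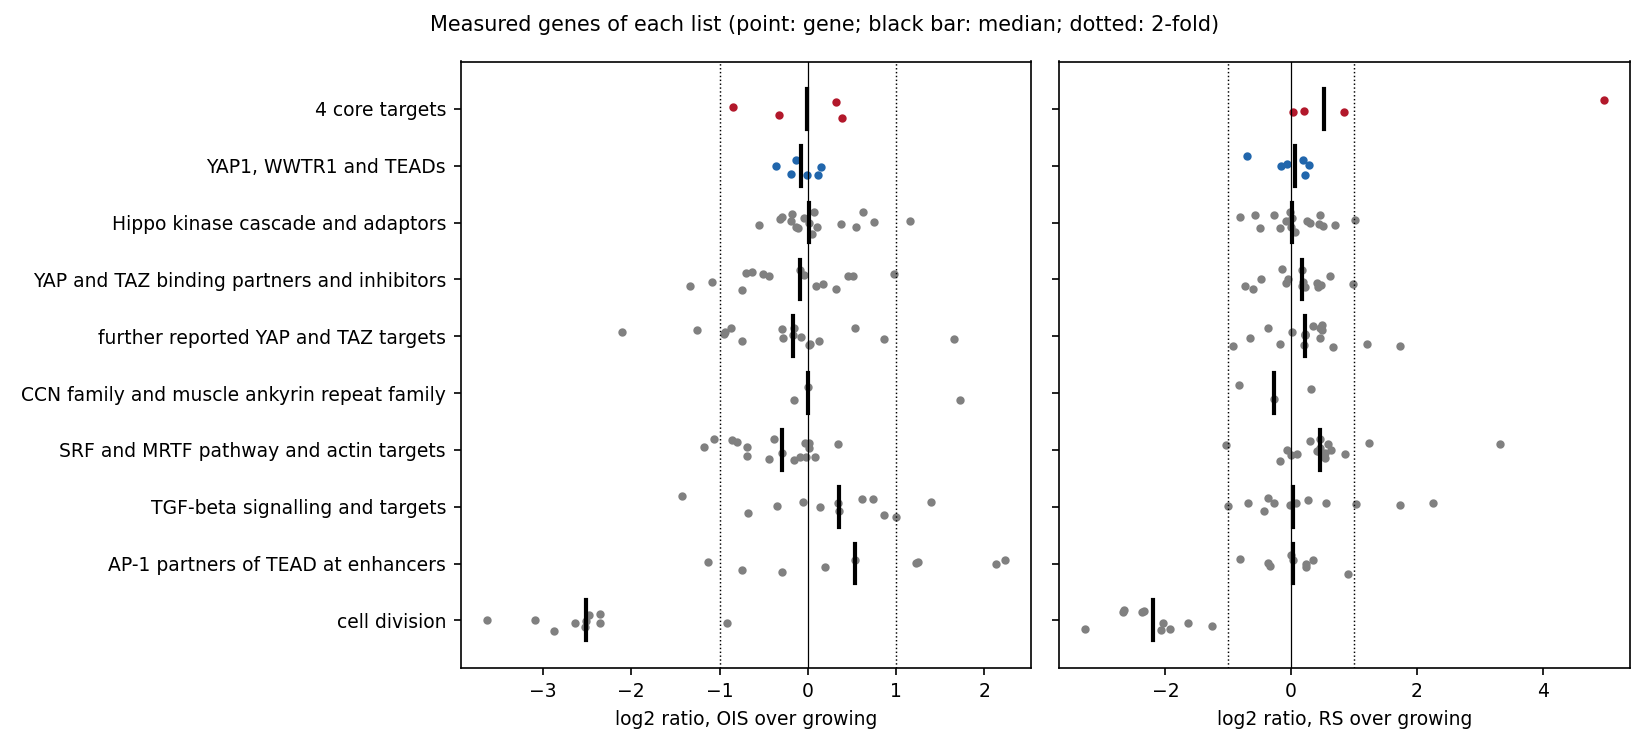
Log2 ratios of OIS over growing cells (left) and RS over growing cells (right) for the measured genes of each list, with a black bar at the list median and dotted lines at 2-fold; both panels share the growing array. The core targets have medians of -0.01 and 0.52, the factors of -0.07 and 0.06, and the SRF and MRTF list of -0.29 and 0.46.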

How the data were processed

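Per the labels' protocols, total RNA of 1 culture per condition was labelled with biotin for Affymetrix arrays. Each deposited value is the intensity of a probe set from MAS5, as named in the submitters' processing notes with no version. MAS5 scales each array by 1 factor (2% trimmed means 497 on all 3), so a shift of all genes would be removed. No detection calls or replicates were used.

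Genes were named from GEO's platform annotation, with 41091 probe sets naming 1 gene. Signals under the pooled median were raised to it before log2. A gene was represented by its brightest probe set (mean log2 signal) and was measured if above the floor on at least 1 array (13466 of 19775). No test was made. The members and lists were chosen with earlier results of these data known. Named were the 10 members, the 2 highest and 2 lowest genes of each pathway list above the floor on both arrays, the 2 nearest genes of each member and further list genes chosen after their values were seen. Marker lists of 5 cell types were read. The planned protein comparison was not made. The steps were tested on simulated data with changes placed in brighter genes only, which does not cover signals near the floor. Alternatives covered scaling, floor, filter, probe set rule and fold. Python 3.11.15, numpy 2.4.6, pandas 2.3.3 and matplotlib 3.10.9 were used.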

Additional observations from a re-analysis of the deposited data

How the results depend on the processing

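Under quantile normalization, centring, other floors, no filter, the median of all probe sets and the omission of cross-hybridizing probe sets, the target median ranged from -0.17 to -0.01 in OIS over growing cells, 0.40 to 0.57 in RS over growing cells and -0.80 to -0.69 in OIS over RS, and the factor median from -0.07 to -0.01, 0.00 to 0.19 and -0.07 to -0.06. No member past 2-fold changed sign. Centring could change none of these values, because the median over all measured genes was 0.00 in each comparison. Leaving out the filter could not change the members either, since all 10 were measured. Of single members, 4 values moved by more than the spread between probe sets: ANKRD1 in RS over growing cells was 4.28 when the floor was the 60th percentile, and with the median of all probe sets TEAD1 in OIS over growing cells was -0.86 and TEAD2 was 0.00 in RS over growing cells and in OIS over RS, since most of its probe sets lie under the floor. At 1.5-fold in place of 2-fold, 1 target (AMOTL2) passed in OIS over growing cells, 1 factor (TEAD2) and 2 targets (ANKRD1 and CCN2) in RS over growing cells, and 1 factor (TEAD1) and 2 targets (ANKRD1 and AMOTL2) in OIS over RS. Without ANKRD1, 0 targets passed 2-fold in RS over growing cells or in OIS over RS. Over all genes, for OIS over growing cells, RS over growing cells and OIS over RS in turn, the counts at 2-fold of 1556, 1252 and 1447 became 3571, 3195 and 3418 at 1.5-fold, 632, 464 and 557 at 3-fold, and 3239, 2931 and 3310 when the floor was the 25th percentile, where 18131 genes were measured. The 8 pathway lists were tried under the same alternatives after their values were seen. In OIS over RS the median of the further targets ranged from -0.75 to -0.43, that of the SRF and MRTF list from -1.03 to -0.62, and that of the binding partners from -0.27 to -0.15. Against growing cells the SRF and MRTF median ranged from -0.35 to -0.09 in OIS and 0.31 to 0.70 in RS, the further targets from -0.17 to -0.09 and 0.17 to 0.47, the binding partners from -0.38 to -0.05 and 0.07 to 0.18, and the AP-1 list from 0.26 to 0.83 and 0.00 to 0.10. For the CCN and muscle ankyrin repeat relatives, with 3 measured genes, the median of 0.00 for OIS over growing cells was 0.48 when the floor was the 25th percentile and 0.78 when it was the 60th or without cross-hybridizing probe sets, and the 0.68 for OIS over RS became 1.33 in the last 2 settings and 0.00 with no filter. Without cross-hybridizing probe sets, 2 of 14 measured further targets in place of 4 of 17 were at least 2-fold lower in OIS than in RS, and 4 of 11 SRF and MRTF genes in place of 2 of 17 passed 2-fold upward in RS over growing cells. No paired analysis was possible because each condition has 1 array. ANKRD1, CCN2, AMOTL2 and TEAD3 rest on 1 probe set, and signals near the floor, as of ANKRD1 in OIS and growing cells, limit its ratio.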
